A study of Homo sapiens with 10 samples.

Results

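MYH6 and MYH7 lie head to tail on chromosome 14 and encode the heavy chains of cardiac myosin. The stretch described here holds both gene bodies, the bases between them and 10 kb on each side, at chr14:23371982-23445660 of GRCh38. Its bounds were set from the GENCODE annotation without use of any measured value. The stretch holds 415 of the 414661 nucleosome positions of chromosome 14 and of the 12921589 positions in the whole list. Of these, 146 have their midpoint in MYH6, 132 in MYH7, 24 in the stretch between the genes, 55 in the 10 kb downstream of MYH6 and 58 in the 10 kb upstream of MYH7.

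The cells were human induced pluripotent stem cells (hiPSCs) of the line PB010.5, which in every sample carried a fluorescent cell cycle reporter (FUCCI) in the EEF2 locus. Permeabilized cells were digested for 5 min with micrococcal nuclease (MNase), which cuts linker DNA, at doses of 0.5, 1, 3, 6 and 10 units (U). Each of the 5 digestions was sequenced with 150-bp and with 50-bp reads, which gives 10 samples with 1 replicate each. The file analysed is a single list that the authors made from pooled libraries, so it holds no value for a single MNase dose, no replicate error can be given, and no test between doses was made.

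Each position is an interval of 140 bp with a score, a signal in the authors' own units whose scaling is not stated. All 415 scores of the locus were whole multiples of 1.23 within 0.001 steps, and a difference smaller than 1 step cannot be seen in a pair of scores. The number of reads behind a score is unknown. A common grid of 10 bp held 397 of the 415 midpoints, so most locations are given in steps of that size. The error of a location was not measured and may be larger. The median score of chromosome 14 was 14.8, and scores rose with GC content over its positions (Spearman's rho = 0.528, a description over 414661 positions of the same libraries). For that reason, each score was also expressed as a percentile among the chromosome 14 positions whose 140 bp have the same GC content, in bins of 1 percentage point, and regions were compared with windows of the same length and a GC content within 2 percentage points.

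Myosin heavy chains are the motor proteins of muscle. They form the thick filament, bind actin and split ATP to move along it. MYH6 encodes the fast alpha heavy chain, which is abundant in the atria, and MYH7 encodes the slower beta heavy chain of the ventricles and of slow skeletal muscle fibres. An intron of each gene holds a microRNA of the miR-208 family, and in the heart these microRNAs are made from the transcripts of their host genes. Both genes are classical markers of cardiomyocytes and are not part of the expression programme by which pluripotent cells are known. Transcripts were not measured here, so nothing is said of their expression in these cells.

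The pair are close copies of each other. MYH6 (ENSG00000197616.13) spans chr14:23381982-23408273 on the minus strand, 26292 bp, and its canonical transcript has 39 exons, 37 of them coding. MYH7 (ENSG00000092054.13) spans chr14:23412740-23435660, also on the minus strand, 22921 bp, and its canonical transcript has 40 exons, 38 of them coding. The aligned coding bases were 90.8% identical and the encoded proteins, of 1939 and 1935 residues, were 92.7% identical. MYH7 lies upstream of MYH6 in the direction of transcription, with 4466 bp between them. Of all 50-base words that start in MYH6, 5.91% occur at least once more in the reference genome, and 3.82% occur in MYH7. The same shares for MYH7 were 6.31%, and 4.39% for MYH6 as the second place. No word of the stretch between the genes occurs elsewhere. For this list, the methods do not say how reads that fit 2 places were treated, so scores in these repeated words are uncertain.

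The longest stretch that the genes share without a difference is shown first, because the positions around it stand apart. It is 418 bp long, at chr14:23390033-23390450 in MYH6 and chr14:23419821-23420238 in MYH7, and it holds the whole of MYH6 exon 26 and of MYH7 exon 27, coding exons of 390 bp that encode part of the myosin rod. Its central 140 bases, as long as 1 position, read the same at chr14:23390172-23390311 and chr14:23419960-23420099 (minus strand, 5′ to 3′, all in lower case since no base differs).
MYH6 and MYH7, centre of the shared run: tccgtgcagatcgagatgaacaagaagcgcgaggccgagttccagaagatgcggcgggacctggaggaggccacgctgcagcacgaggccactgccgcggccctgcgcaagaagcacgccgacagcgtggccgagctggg

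No position had its midpoint in this run, in either gene. In MYH7, neighbouring midpoints were 575 bp apart across it, which is the widest distance in the locus, and the 435 bp without any position, chr14:23419822-23420256, included the whole exon. Of the 50-base words in those 435 bp, 95.3% occur elsewhere. The flanking positions in MYH7 had scores of 21.0 and 18.5, at percentiles 63.1 and 44.1 for their GC content. In MYH6, neighbouring midpoints were 480 bp apart at the same place, the third widest distance in the locus, and 340 bp were uncovered, chr14:23390052-23390391, of which 335 bp were exon and every 50-base word was repeated. The flanking positions in MYH6 had scores of 25.9 and 7.40. The lower of these reached 55 bp into the exon, 25.3% of its words were repeated, and it lay at percentile 2.03 for its GC content. The part of read mapping in this gap was not tested.

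**Figure D1:**
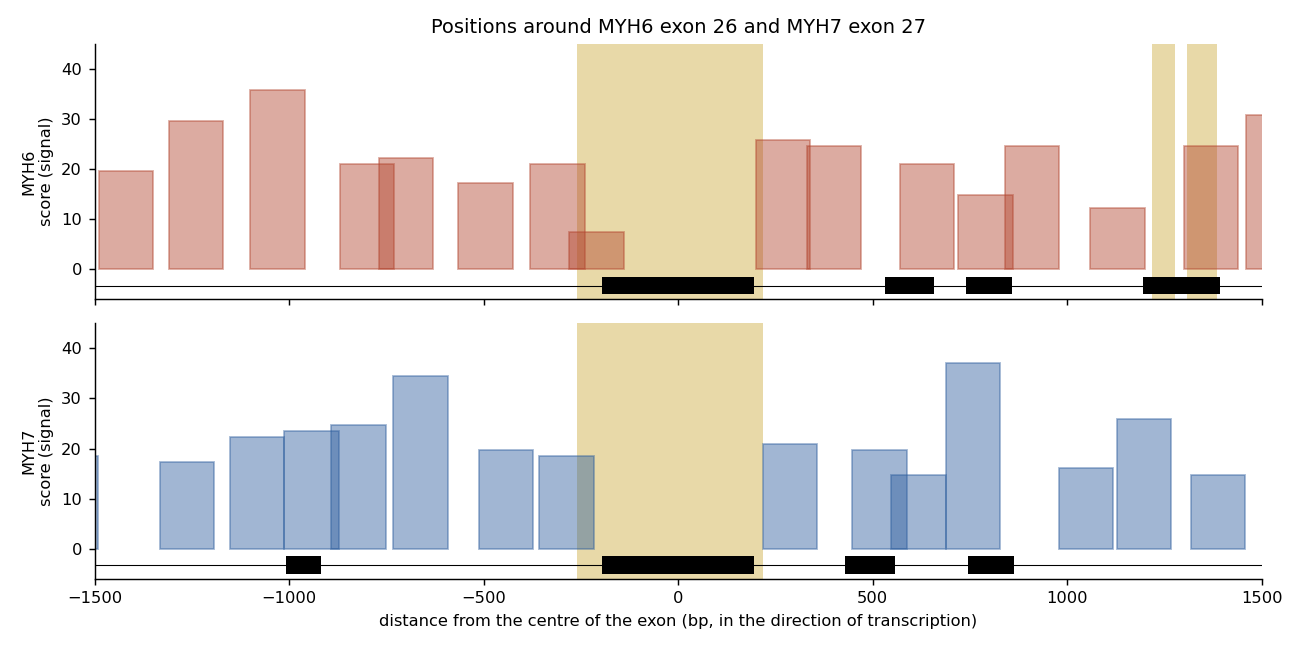
Positions around MYH6 exon 26 (top) and MYH7 exon 27 (bottom). The x axis is the distance from the centre of the exon in bp, in the direction of transcription, and the y axis is the score in deposited units; each coloured box is a position of 140 bp drawn to its score, black boxes are exons, and pale bands are runs of at least 50 bp that are identical in both genes. No box covers the middle of the 418-bp band in either gene.

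In all, the genes share 26 identical runs of at least 50 bp, with a median length of 73 bp, which make up 2276 bp of MYH6. Exon bases account for 76.9% of their summed length, and 22 of the 26 runs touch an exon. They hold 10 midpoints in MYH6 and 11 in MYH7, which is 4.39 and 4.83 per kb, against 5.55 and 5.76 per kb over the whole genes. In the 3 runs of 100 bp or more, the density was 1.52 per kb in each gene, from 1 midpoint in each.

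At equal GC content, positions with repeated words had the lower median percentile in both genes, and in score the medians parted in MYH6 only. The 23 MYH6 positions with at least 1 repeated word had a median score of 16.0, a range from 6.17 to 40.7 and a median percentile of 28.6 at equal GC content. The 123 MYH6 positions with no repeated word had a median score of 23.4, a range from 6.17 to 54.3 and a median percentile of 70.1. In MYH7, the median score was 19.1 for the 22 positions with repeated words and 19.7 for the 110 without, less than 1 step apart, and the median percentiles were 37.4 and 55.2. Of the chromosome 14 positions, 9.44% lay below percentile 10 for their GC content. Among positions with repeated words, 9 of 23 in MYH6 and 5 of 22 in MYH7 did so, and among those without, 5 of 123 and 10 of 110. The ranges of both classes overlapped in both genes. Positions along a gene share sequence and libraries and are not replicates, and these counts are a description.

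Over the whole genes, positions were about as dense as in matched windows, and MYH6 had higher scores than most of its windows while MYH7 did not. MYH6 had 5.55 positions per kb, against a median of 5.61 in 90 windows of chromosome 14 with the same length and GC content, and MYH7 had 5.76 against 5.63 in 131 windows. The median distance between neighbouring midpoints was 170 bp in MYH6 (quartiles 130 and 210) and 160 bp in MYH7 (quartiles 120 and 210). The matched windows had a median of 170 bp for both genes, and 89 of the 131 windows had a wider spacing than MYH7. Over the whole locus, 3 of 414 neighbour distances were 400 bp or more, 0.725%, while 6.16% were that wide on chromosome 14. In windows of the same length and GC content, a comparison added after seeing the data, the median share was 1.47% (range 0.957 to 18.8%, 29 windows, all above the locus). For the genes alone the shares were 1.38% in MYH6 and 0.763% in MYH7, close to the medians of their own windows, 1.32% and 0.794%.

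The median score of MYH6 was 22.8, with quartiles of 16.0 and 28.4 and a range from 6.17 to 54.3. It was higher than in 88 of the 90 windows matched to it, whose medians had a median of 19.7 ± 1.66 (SD over windows) and ran from 12.3 to 23.4. The median score of MYH7 was 19.7, with quartiles of 13.6 and 24.7 and a range from 6.17 to 48.1. It was equal to the median of its own 131 windows, 42 of which were lower and 44 higher. The score ranges of the genes overlapped over most of their extent. At equal GC content, the median percentile was 64.4 for MYH6 and 54.2 for MYH7, and without the positions that hold repeated words it was 70.1 and 55.2. Among the 149 protein-coding genes of chromosome 14 that are 15 to 40 kb long, 144 had a lower median percentile than MYH6 and 90 a lower one than MYH7; their median was 52.7 and their range 30.9 to 70.8.

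**Figure D2:**
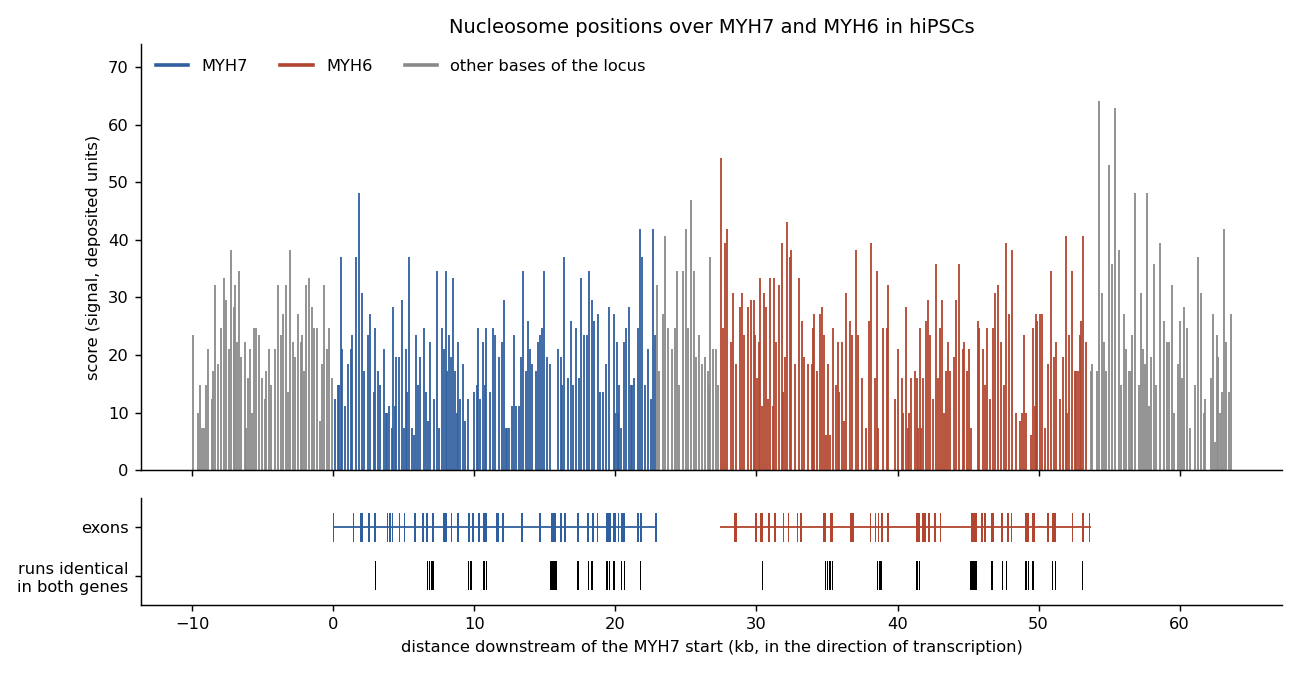
Score of each of the 415 positions (y axis, deposited units) along the locus. The x axis is the distance downstream of the MYH7 start in kb, in the direction of transcription; blue lines are MYH7, red lines MYH6 and grey lines the rest, and the lower panel marks exons of the canonical transcripts and the 26 runs that are identical in both genes. The highest score in MYH6, 54.3, stands at its start, and the highest of the locus, 64.2, lies downstream of MYH6.

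Of the chromosome 14 positions, 9.95% lay above percentile 90 for their GC content. The locus had 70 of 415 there, 16.9%, with 25 of 146 in MYH6 (17.1%), 17 of 132 in MYH7 (12.9%), 7 of 24 between the genes and 12 of 55 in the 10 kb downstream of MYH6. Below percentile 10 lay 35 of 415, 8.43%, which is near the 9.44% of the chromosome, with 14 in MYH6, 15 in MYH7 and 0 between the genes. The locus was thus richer than the chromosome in high scores, while its share of low scores was close to that of the chromosome.

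**Figure D3:**
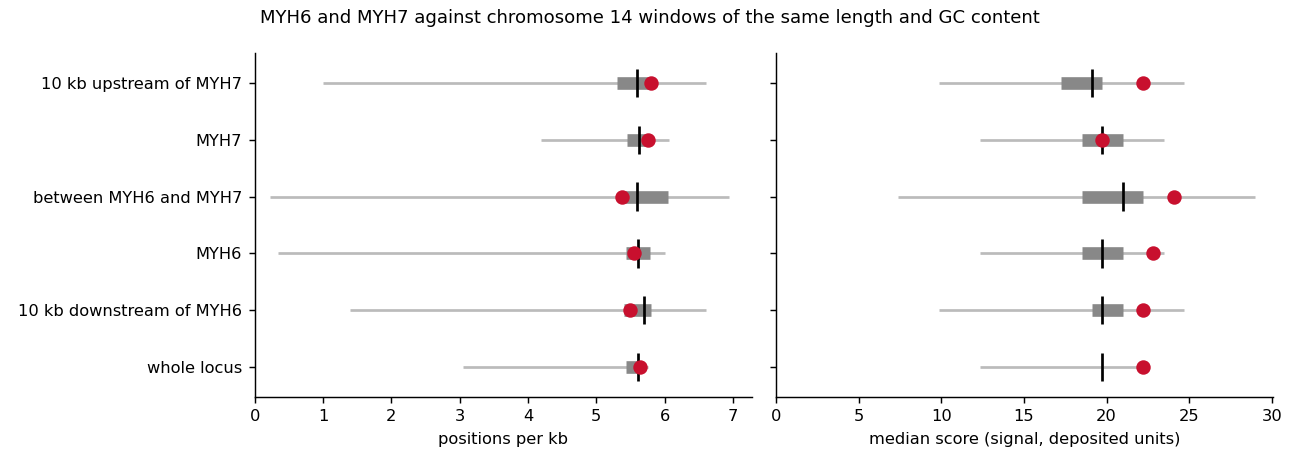
Positions per kb (left) and median score in deposited units (right) of each region, as red points, against chromosome 14 windows of the same length with a GC content within 2 percentage points. Thin lines run from the lowest to the highest window, thick grey bars are the quartiles and black ticks the median of the windows; the number of windows ran from 29 for the whole locus to 444 for the 10 kb upstream of MYH7. The red point of MYH6 lies near the upper end of the windows in score and close to their median in density.

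Each gene was cut into 4 parts of equal length, and by the medians the difference between the genes was greatest in the part next to the start. From 5′ to 3′, the median percentiles of the 4 parts of MYH6 were 77.6 (38 positions), 63.3 (34), 59.4 (38) and 61.5 (36). In MYH7 they were 47.1 (35 positions), 48.2 (33), 62.7 (31) and 55.7 (33). By the medians, MYH6 was highest at its 5′ end, and MYH7 was lower in parts 1 and 2 than in parts 3 and 4. The 95% intervals of these medians over positions, which are not replicates, overlapped between the parts of each gene. In MYH6 they were 56.6 to 85.9 for part 1 and 32.1 to 79.2 for part 2. The interval for part 1 of MYH7 was 18.5 to 63.1, so the genes overlapped in part 1 as well. This cut was not among the planned comparisons. The 5′ part of MYH6 had a GC content of 57.2% and that of MYH7 52.9%, and the percentiles take GC content into account.

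Positions next to the start sites showed the contrast most plainly. These are the sequences under the position just downstream of each start, at chr14:23408082-23408221 for MYH6 and chr14:23435472-23435611 for MYH7 (minus strand, 5′ to 3′, intronic in both, with no repeated word). Capitals mark runs of 4 or more A or of 4 or more T, which bend poorly around histones.
MYH6, position downstream of the start: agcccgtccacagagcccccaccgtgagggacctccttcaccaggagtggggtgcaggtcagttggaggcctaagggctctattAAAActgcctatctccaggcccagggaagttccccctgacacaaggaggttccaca
MYH7, position downstream of the start: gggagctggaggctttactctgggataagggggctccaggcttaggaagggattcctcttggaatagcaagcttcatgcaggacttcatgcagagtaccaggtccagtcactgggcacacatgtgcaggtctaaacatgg

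The MYH6 position had a score of 54.3, the highest in the gene, at percentile 99.7 for its GC content of 60.0%. The MYH7 position had a score of 12.3, at percentile 15.1 for its GC content of 53.6%. Both were placed alike, with the midpoint 121 bp from the MYH6 start and 118 bp from the MYH7 start. Upstream of the start, the nearest position had a score of 14.8 in MYH6 and 16.0 in MYH7. The midpoints on either side of the start were 240 bp apart in MYH6 and 210 bp in MYH7, and neither start site was covered by a position. Over 614 starts of protein-coding genes on chromosome 14, this distance had a median of 230 bp (quartiles 170 and 310), so both lay within the middle of that range. Among starts with a similar GC content, the median score of the downstream position was 25.9 (quartiles 19.7 and 37.0, 203 starts) for those near MYH6 and 27.1 (quartiles 19.7 and 37.0, 211 starts) for those near MYH7. The MYH6 score was above the upper quartile of its set and the MYH7 score below the lower quartile of its own. Their ranks among these starts were not computed.

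Further into MYH6, the positions centred 221, 371 and 511 bp from the start had scores of 24.7, 39.5 and 41.9. In MYH7, those centred 318, 418 and 528 bp from the start had scores of 14.8, 14.8 and 37.0. Each gene had 6 positions with a midpoint in its first 1000 bp, with a median score of 35.2 in MYH6 and 14.8 in MYH7 and with overlapping ranges. Upstream of the starts, both genes had a position with a high score at a similar distance, 37.0 at -649 bp in MYH6 and 32.1 at -632 bp in MYH7.

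**Figure D4:**
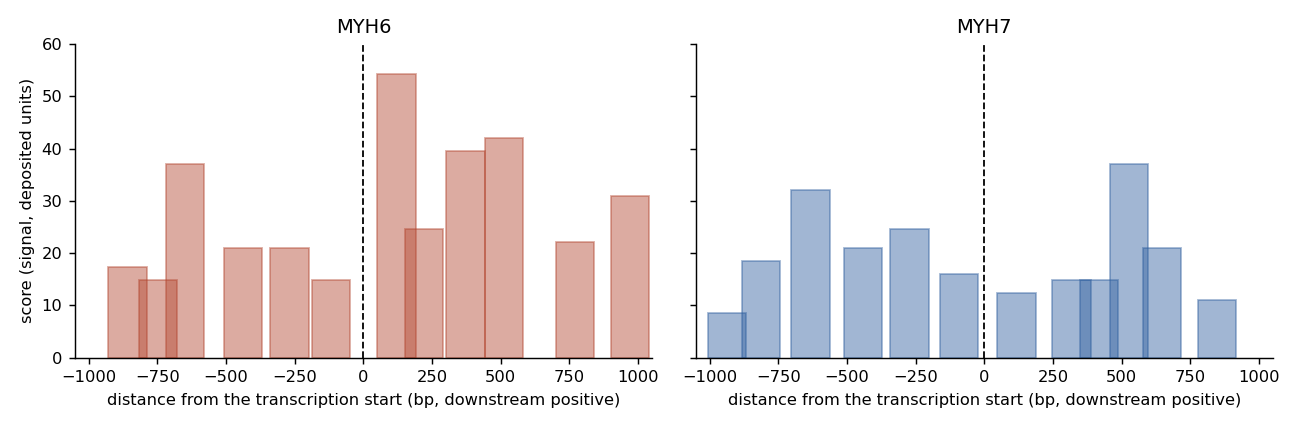
Positions within 1000 bp of the transcription start of MYH6 (left) and MYH7 (right). The x axis is the distance from the start in bp, positive downstream, the y axis is the score in deposited units, and each box is a position of 140 bp drawn to its score; the dashed line is the start. The box just right of the start reaches 54.3 in MYH6 and 12.3 in MYH7.

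The promoter of MYH6 in RefSeq (GRCh38.p14) is shown because this contrast lies beside it. The window runs from 250 bases before the start to 50 bases after it, chr14:23408224-23408523 on the minus strand, and the 250 bases before the start are printed with motif matches in capitals. RefSeq's table of promoters was searched for MYH6 and MYH7, and MYH6 matched.
MYH6, 250 bases before the start: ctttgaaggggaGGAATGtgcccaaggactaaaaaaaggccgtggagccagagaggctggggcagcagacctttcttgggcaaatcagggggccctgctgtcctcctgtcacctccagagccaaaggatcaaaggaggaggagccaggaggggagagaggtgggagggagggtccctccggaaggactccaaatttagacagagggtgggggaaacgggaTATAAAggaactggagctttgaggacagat

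The letters TATAAA, the core of the TATA box that positions the transcription machinery, begin 30 bases before the start (written -30), in the uncovered 100 bp between the flanking positions. TATAAA was found on either strand in 11.5% of 35114 promoter windows of the same length. The letters CATTCC, the core of the M-CAT element bound by TEAD factors in muscle genes, lie on the other strand at -238, and 14% of the windows held them. The letters AGATAA, a motif of the family of zinc finger factors that includes the cardiac regulator GATA4, had no match in the window, and 10.3% of all windows held one. The letters CANNTG, the E-box of basic helix-loop-helix factors, had no match either, and 68.7% of all windows held one. The same was true of the MEF2 motif and of the CArG box of serum response factor, which 2.99% and 1.29% of all windows held. None of the matches overlapped another, and a match is not a site at which binding was measured.

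Exons and introns were compared at equal GC content, since exons were richer in GC (57.5% against 52.1% in MYH6, and 57.3% against 51.5% in MYH7). A position was counted as exonic when at least 0.40 of it lay in exons of the canonical transcript. In MYH6, 35 exonic positions had a median percentile of 57.9 and 111 intronic ones 65.4. In MYH7, 46 exonic positions had a median percentile of 59.2 and 86 intronic ones 49.4. By this rule, the exons of the genes were thus alike in their median and the introns differed more. The intervals of these medians over positions, which are not replicates, overlapped between the genes. For exons they were 35.9 to 70.1 in MYH6 and 32.8 to 65.3 in MYH7. For introns they were 59.3 to 75.4 in MYH6 and 34.3 to 62.9 in MYH7. With the midpoint in an exon as the rule, the exon medians were 51.0 in MYH6 and 59.4 in MYH7. The intron medians were then 65.4 and 48.7. In score, the exonic positions ran from 6.17 to 40.7 in MYH6 and from 7.40 to 37.0 in MYH7, so that the ranges overlapped almost entirely.

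Coding exons were then matched one to one along the aligned coding sequences, which gave 36 pairs, and each exon was represented by the position with the largest overlap. The 390-bp exon and the last coding exon had no position in 1 of the genes, and 34 pairs were compared. MYH6 had the higher score in 20 pairs, MYH7 in 12, and 2 were equal, with a median difference of -2.47 (MYH7 minus MYH6), which is 2 steps. This excess rested on positions that only reached into an exon. In the 27 pairs in which both positions covered at least 0.4 of the exon (or of the position, for longer exons), a limit set after seeing the data, MYH6 was higher in 13, MYH7 in 12, and the median difference was 0. By percentile at equal GC content, over all 34 pairs, MYH6 was higher in 21 and MYH7 in 13, with a median difference of -9.86. The median percentile over these pairs was 70.3 in MYH6 and 59.2 in MYH7, further apart than for all exonic positions. Scores thus leaned toward MYH6 over all pairs, and showed no common direction over the well-covered ones.

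Exon pairs were alike in base composition but not in score. Across the 34 pairs, which are exons of the same genes and not replicates, Spearman's rho between the genes was 0.841 for the GC content of the exons, -0.0164 for the scores and -0.10 for the offset of the position from the exon centre. The median absolute difference in score was 10.5, 17 pairs differed by at least 10, and in 7 pairs the positions lay within 20 bp of the same place in the exon. Identity went with lower scores. In the 10 pairs with at least 95% identical bases, the median percentile was 52.7 in MYH6 and 27.6 in MYH7, and in the 24 less identical pairs it was 83.8 and 65.2. The part of repeated words in this was not tested.

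**Figure D5:**
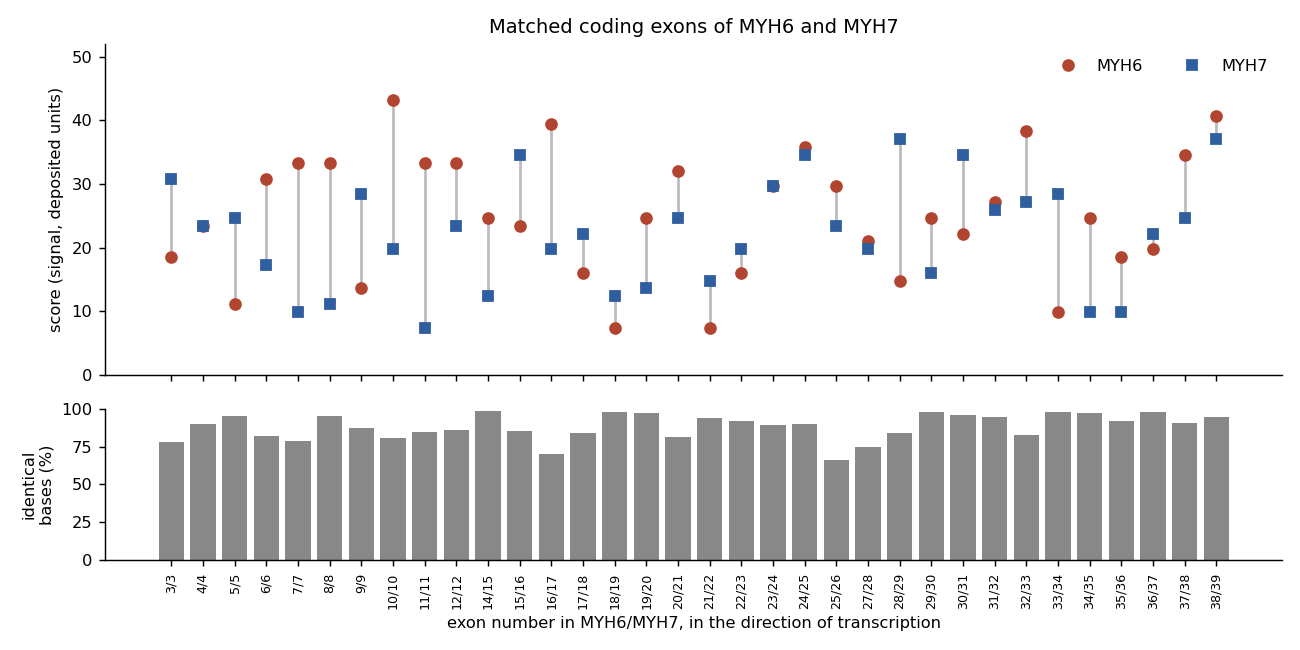
Scores of the 34 compared pairs of coding exons (top, y axis in deposited units, red circles MYH6, blue squares MYH7, grey lines joining a pair) and the share of identical bases in each pair in percent (bottom). The x axis gives the exon numbers in MYH6 and MYH7 in the direction of transcription. MYH6 was higher in 20 pairs and MYH7 in 12.

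The largest differences, 3 in each direction, show how far the positions of close copies can part. The exons of 3 of these 6 pairs are printed from the reference (minus strand, 5′ to 3′), with the bases that differ between the genes in capitals.
MYH6 exon 28, chr14:23389393-23389511: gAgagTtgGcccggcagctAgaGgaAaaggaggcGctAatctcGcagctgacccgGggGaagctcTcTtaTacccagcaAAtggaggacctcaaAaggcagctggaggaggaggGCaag
MYH7 exon 29, chr14:23419177-23419295: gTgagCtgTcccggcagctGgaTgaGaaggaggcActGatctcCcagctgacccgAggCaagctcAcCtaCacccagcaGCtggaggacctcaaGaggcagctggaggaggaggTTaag
MYH6 exon 9, chr14:23403715-23403778: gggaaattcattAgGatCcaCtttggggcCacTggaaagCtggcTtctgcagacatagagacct
MYH7 exon 9, chr14:23431418-23431481: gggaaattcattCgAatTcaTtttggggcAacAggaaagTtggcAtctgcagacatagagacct
MYH6 exon 7, chr14:23404711-23404822: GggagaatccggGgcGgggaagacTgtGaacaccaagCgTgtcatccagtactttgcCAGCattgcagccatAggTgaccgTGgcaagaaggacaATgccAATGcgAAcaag
MYH7 exon 7, chr14:23431761-23431869: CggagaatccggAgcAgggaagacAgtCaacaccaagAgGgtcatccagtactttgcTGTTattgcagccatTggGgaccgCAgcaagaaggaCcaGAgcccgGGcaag

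MYH6 exon 28 and MYH7 exon 29 are both 119 bp long and 84.0% identical, and part of the myosin rod. The position on the MYH6 exon covered all of it and had a score of 14.8, whereas the position on the MYH7 exon covered 84 bp of it and had a score of 37.0. Exon 9, in the motor domain, is 64 bp long in both genes and 87.5% identical, and both positions covered all of it, with scores of 13.6 in MYH6 and 28.4 in MYH7. The pair of MYH6 exon 33 and MYH7 exon 34, of 309 bp and 98.1% identical, had scores of 9.87 and 28.4, from positions of which 36.3% and 28.6% of the words were repeated.

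MYH6 was higher by 23.4 at exon 7, which is 112 bp long in MYH6 and 109 bp in MYH7 and 78.8% identical. Its position had a score of 33.3 in MYH6, where it covered 41 bp of the exon, and 9.87 in MYH7, where it covered the whole exon. Exon 10 had scores of 43.2 and 19.7, but the MYH6 position covered 25 of its 99 bp. Exon 11 differed by 25.9, with scores of 33.3 and 7.40, and the MYH6 position covered only 5 of its 104 bp. The same MYH6 position also represented exon 12. The least identical pair compared, MYH6 exon 25 and MYH7 exon 26 with 65.9% identical bases, had scores of 29.6 and 23.4, and the most identical one compared, MYH6 exon 14 and MYH7 exon 15 with 98.8%, had scores of 24.7 and 12.3.

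In 1 place, the exon structure itself differs. MYH6 exon 13 is 269 bp long and matches MYH7 exons 13 and 14, of 119 and 150 bp, which are split by an intron of 124 bp. The MYH6 exon had a position wholly within it with a score of 23.4. Another position, with a score of 6.17, covered 63 bp at its 3′ end, in the part that matches MYH7 exon 14. The positions with the largest overlap on MYH7 exons 13 and 14 had scores of 24.7 and 8.64, and a further one on exon 14 had 13.6. No midpoint lay in the 124-bp intron, which the flanking positions covered.

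The microRNA genes sit in matching introns. MIR208A (chr14:23388596-23388666) lies in intron 29 of MYH6, which is 520 bp long, and MIR208B (chr14:23417987-23418063) in intron 30 of MYH7, which is 523 bp long. The 3p mature sequences from RefSeq are shown with the seed, bases 2 to 8, in capitals, because the seed sets which messenger RNAs are bound. The seeds do not differ, and 3 of the 22 bases do.
hsa-miR-208a-3p: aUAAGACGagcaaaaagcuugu
hsa-miR-208b-3p: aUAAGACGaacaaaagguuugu

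The nearest position on each side lay at a similar distance from both hairpins. Upstream of the hairpin in the direction of transcription, a position was centred 91 bp from the centre of the MIR208A hairpin (-91) with a score of 30.8, covering 15 bp of it. The matching position at MIR208B was centred at -77 bp with a score of 33.3, covering 32 bp of the hairpin. Downstream, positions were centred at 119 bp with a score of 32.1 for MIR208A and at 113 bp with a score of 23.4 for MIR208B. These downstream positions stood at percentiles 79.3 and 49.3 for their GC content. The next positions outward lay less alike, at -251 and 289 bp for MIR208A and at -192 and 333 bp for MIR208B. No midpoint lay in either hairpin, and most of each hairpin fell between the flanking positions. How often other introns have such an arrangement was not tested.

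Single positions mark the extremes of each gene. After the position at its start, the highest scores in MYH6 were 43.2 at chr14:23403422-23403561 and 41.9 at chr14:23407692-23407831. The lowest was 6.17, which is 5 steps, at chr14:23386142-23386281, chr14:23400382-23400521 and chr14:23400632-23400771, and in the second of these 70.3% of the words were repeated, in the third 14.3% and in the first 0. In MYH7 the highest score was 48.1 at chr14:23433752-23433891, in an intron near the 5′ end, followed by 41.9 at chr14:23413872-23414011 and chr14:23412942-23413081. Its lowest was 6.17 at chr14:23429862-23430001, and 8 positions shared the next score, 7.40. The first of them along the chromosome was chr14:23415162-23415301, where 56.0% of the words were repeated, and the next was chr14:23423122-23423261, which has a GC content of 34.3%.

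The remaining wide gap of the locus had no repeated word. In MYH6, neighbouring midpoints were 510 bp apart across the 370 uncovered bp of chr14:23395882-23396251, an intronic stretch with a GC content of 33.2%, far below the 53.4% of the gene. It lies inside ENSG00000289973, a long noncoding RNA gene of 1468 bp within MYH6, whose 7 positions had a median score of 12.3. In MYH7, the antisense long noncoding RNA gene ENSG00000258444 held 4 positions, also with a median score of 12.3.

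Between and beside the genes, scores were higher than in most matched windows, by the median and by the mean. The 24 positions between MYH6 and MYH7 had a median score of 24.1 and a lowest score of 14.8, which is the median of the chromosome. Their median was above that of 264 of 298 matched windows and below 30, and their mean of 26.1 was above that of 287 (median of the window means 21.5 ± 3.19 SD over windows), while their density of 5.37 per kb was below the windows' median of 5.60. The 10 kb downstream of MYH6, which hold IL25, a cytokine gene, and CMTM5, a gene of the chemokine-like factor family, had a median score of 22.2, above 209 of 241 matched windows and below 11, and a median percentile of 53.7. Their mean score of 24.7 was above all 241 windows, whose highest was 24.6, and with windows matched to within 3 percentage points 383 of 386 means were lower. The highest score of the locus, 64.2 at chr14:23381322-23381461, and the next, 62.9 at chr14:23380202-23380341, lay there, between CMTM5 and MYH6 and outside both genes. The 10 kb upstream of MYH7 had a median score of 22.2, above 414 of 444 windows, and a mean of 22.0, above 403 of them. Their median percentile at equal GC content was 69.1, the highest among the whole genes, the stretch between them and the flanks. It was above the 64.4 of MYH6 as a whole but below the 77.6 of its 5′ part. For the stretch between the genes it was 58.0.

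MYH6 and MYH7 were not each other's nearest match. Over positions per kb, median score, median spacing and GC content, each scaled to its spread over the 149 genes of 15 to 40 kb, MYH7 ranked 17 of 148 in likeness to MYH6, and MYH6 ranked 29 of 148 in likeness to MYH7. Nearest to MYH6 were ZFHX2, NYNRIN and HHIPL1, at distances of 0.644, 0.648 and 0.656 and each with a median score of 21.0. Nearest to MYH7 were SIVA1, ARHGEF40 and BDKRB2, at distances of 0.429, 0.433 and 0.442 and with median scores of 18.5, 21.0 and 19.7. The distance between MYH6 and MYH7 was 1.26.

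Against the other myosin heavy chain genes, MYH6 had the highest median score, 22.8, which was less than 1 step above the 22.2 of MYH7B. The list holds 12 genes of the fast skeletal, embryonic, perinatal, extraocular, smooth muscle, non-muscle and slow types. Their median scores ran from 12.3 to 22.2 and their median percentiles, among autosomal positions of the same GC content, from 40.5 in MYH2, a fast skeletal gene, to 65.1 in MYH7B, a slow-type relative of the cardiac pair. On that scale MYH6 stood at 65.3, above all 12 and level with MYH7B within 1 percentage point, and MYH7 at 55.2, above 11 of the 12. The density of the 12 genes ran from 4.26 to 5.62 per kb, with 10 of them below MYH6 and 12 below MYH7. The GC content of the 12 genes ran from 38.4% to 53.9%, with MYH7B at 53.9%, close to the 53.4% of MYH6. Neither density nor median score was set to equal GC content here.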

How the data were processed

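The series holds hiPSC libraries from 5 MNase doses, with 1 replicate at each dose and read length, and the authors made a list of 12921589 positions from pooled libraries. According to the methods, reads were trimmed with Trimmomatic 0.40 (per the submitters' processing notes), aligned to GRCh38, cleared of blacklisted regions and run through the nucMACC workflow. The 50-bp runs were not pursued, and which runs were pooled, how reads with several placements were handled, and the scaling of the score are not given in the sources used here. The paper gives read totals for its libraries. Each deposited score is a signal that is never negative, without a read count, so the number of reads behind it is unknown and counting intervals were not made.

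The list was used unfiltered. Midpoints (start plus 70 bp) were assigned to genes of GENCODE release 44, where the methods name release 48. Windows of chromosome 14 were tiled without overlap, free of unsequenced bases and off the locus. Repeated words were exact 50-base words, on either strand. Canonical coding sequences were aligned to match exons. The list of other myosin genes, the motifs and the members were chosen with earlier results of these data known. Named positions were those beside the starts and hairpins, the 3 highest and 3 lowest scores of each gene, the 3 widest gaps, and the exon pairs with the 3 largest differences in each direction or the most and least identical bases. Named genes were those of the locus and the 3 most similar genes of 15 to 40 kb. The highest scores downstream of MYH6 were named after their values were seen. With 1 pooled list, neither tests nor p-values could be made between conditions. Alternatives were other GC tolerances, windows within genes, positions at or above the median score, mean scores, other gap limits, other definitions of exons and starts, and pairs by GC-conditional percentile or of equal length. The software was Biopython 1.88, matplotlib 3.10.9, NumPy 2.4.6, SciPy 1.17.1 and Python 3.11.15, and the measures were tested on simulated positions.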

Additional observations from a re-analysis of the deposited data

How the results depend on the processing

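Of 50 values recomputed under an alternative, over 18 results, 47 stayed within the spread of the value reported. Spread meant the SD over matched windows or a width from the quartiles over chromosome 14 starts. Elsewhere it was a 95% interval over positions, distances or exon pairs, which are not replicates. Some alternatives could not differ, since MYH7 has 1 annotated transcript. The share of exon pairs with MYH7 higher rose from 35.3% to 44.4% when well covered, inside a wide interval (21.5 to 52.1%). The density ratios to matched windows lie near 1 and crossed it in places: for MYH6 from 0.990 to 1.04 once low-scoring positions (below the median score) were left out, and for the whole locus from 1.00 to 0.992 with windows inside protein-coding genes. With the positions at or above the median score of chromosome 14 only, the median spacing rose to 190 bp in MYH6 and 200 bp in MYH7, which leaves fewer positions by construction. With a limit of 300 bp, 3.86% of neighbour distances in the locus were wide, against 14.02% on chromosome 14. At this limit no windows of the same GC content were compared. At 400 bp such windows had a median share of 1.47%, well below the 6.16% of the chromosome. The higher median score of MYH6 against matched windows, 1.16 times their median, was 1.09 times with means, and the ratio for MYH7 was 1.00 with medians and 0.979 with means. Leaving out positions with repeated words and requiring exon pairs to be well covered were chosen after seeing the data. No paired analysis was possible because the analysed list is pooled and names no sample, and for the same reason no library could be left out. Without the number of reads behind it, the precision of a single score is unknown.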
